A study of Mus musculus with 9 samples.

Results

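The nuclear pore complex genes of HL-1 cells were taken as every symbol beginning with Nup and a digit, without a hyphen, plus 12 named pore genes, which gave 32 of the 25175 symbols listed. Of these, 30 reached 1 FPKM (fragments per kilobase of transcript, scaled to the mapped fragments of the library) in at least 3 of the 9 libraries. They were among 11337 genes tested. Nupl2 had the lowest tested level, 3.29 to 5.399 FPKM over the libraries. The members left out were Nup210l, a relative of Nup210, at 0.166 to 0.285 FPKM, and Nup62cl, a relative of Nup62, at 0.00557 to 0.129 FPKM. Nup133 was not analysed here. HL-1 is a line of mouse atrial cardiomyocytes from an atrial tumour driven by the SV40 large T antigen, so its cells both beat and divide. Cells in Claycomb medium were exposed for 24 h to ivermectin at 5 µM, to importazole at 10 µM, or to the DMSO vehicle at 0.1%, and messenger RNA captured on magnetic beads was sequenced in 3 libraries per group. Ivermectin is an antiparasitic drug also used to block the import receptor pair importin α/β, and importazole was selected as a blocker of the importin-β and RanGTP interaction. The labels do not give the DMSO content of the compound groups and do not say whether libraries came from separate cultures, so p-values measure the spread among these libraries alone, and it may be technical. The doses differ, and the compounds are not structural relatives.

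The nuclear pore complex is the channel through which importins and exportins carry cargo between cytoplasm and nucleus. Outer rings (the Y complex) and an inner ring shape the pore in the nuclear envelope, and membrane proteins anchor it. FG nucleoporins, rich in phenylalanine-glycine repeats, fill the channel and bind the receptors. A basket faces the nucleus, and filaments with messenger RNA export factors face the cytoplasm. Importin-β, which importazole inhibits, binds FG repeats during transport and is also known to restrain pore assembly until RanGTP releases nucleoporins from it. Cardiomyocytes depend on the same carriers, and Nup155 is known from an inherited atrial fibrillation.

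Promoter windows are shown for 4 members to which the results below return: Nup188 and Nup210, which passed the test, and Rae1 and Nupl2, which were high with both compounds without passing. Each is the 250 bases before the RefSeq start on GRCm38.p6, written 5′ to 3′ on the gene's strand. Capitals mark matches, on either strand, to any of 9 short motifs. The Nup188 window, chr2:30286166-30286415 on the plus strand, held a YY1 motif (AAGATGGC) on the opposite strand.
Nup188: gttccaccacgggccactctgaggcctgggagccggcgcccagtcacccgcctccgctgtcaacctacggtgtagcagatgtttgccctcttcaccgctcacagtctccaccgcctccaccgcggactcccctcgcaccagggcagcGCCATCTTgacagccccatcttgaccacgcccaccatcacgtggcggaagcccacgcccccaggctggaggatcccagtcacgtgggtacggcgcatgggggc
The Nup210 window, chr6:91116827-91117076 on the minus strand, held an E2F motif (TTCCCGC or TTGGCGC) and a pair of SP motifs (GGGCGG).
Nup210: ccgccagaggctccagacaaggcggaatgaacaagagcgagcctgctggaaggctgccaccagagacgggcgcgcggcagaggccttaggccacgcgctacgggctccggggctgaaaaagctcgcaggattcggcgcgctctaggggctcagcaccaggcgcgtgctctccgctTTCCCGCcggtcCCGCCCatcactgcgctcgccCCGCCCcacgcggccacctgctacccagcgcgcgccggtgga
The Rae1 window, chr2:172999867-173000116 on the plus strand, held an SP motif.
Rae1: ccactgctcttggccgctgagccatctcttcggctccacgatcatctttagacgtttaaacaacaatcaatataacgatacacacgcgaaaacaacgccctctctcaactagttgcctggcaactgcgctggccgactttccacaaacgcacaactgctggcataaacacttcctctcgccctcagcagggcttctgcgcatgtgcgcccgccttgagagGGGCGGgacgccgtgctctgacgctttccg
The Nupl2 window, chr5:24164713-24164962 on the plus strand, held a CCAAT box (CCAAT) on the opposite strand.
Nupl2: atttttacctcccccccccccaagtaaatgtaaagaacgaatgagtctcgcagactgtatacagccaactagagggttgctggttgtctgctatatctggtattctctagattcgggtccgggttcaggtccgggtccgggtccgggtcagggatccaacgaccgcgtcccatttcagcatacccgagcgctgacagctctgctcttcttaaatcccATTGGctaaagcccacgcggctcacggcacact
None of the 9 motifs was in all 4 windows.

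RefSeq windows were found for 26 of the 30 tested members. Nup98, Nup93 and Nup37 had 2 windows each, and a gene counted as holding a motif if any of its windows matched. The median GC content of the 26 members was 62.0%, beside 60.4% for the 8907 tested genes with a window and 52.4% for all 27025 genes with one. SP motifs were in 15 of the 26 (57.7%, beside 66.4% of tested genes and 35.4% of all genes), and CCAAT boxes in 10 (38.5%, beside 41.8% and 37.5%). The ETS motif (CCGGAAGT) was in 4, Nup54, Aaas, Nup155 and Sec13 (15.4%, beside 7.31% and 3.23%). The NRF1 motif (GCATGCGC) was in 3, Nup50, Nup62 and Nup107 (11.5%, beside 5.47% and 2.56%). The E2F motif was in 2 (7.69%, beside 12.6% and 6.45%), as was the YY1 motif (7.69%, beside 2.50% and 1.83%). A TATA box (TATAAA) was in 3 (11.5%, beside 7.61% and 14.3%). The C/EBP-ATF response element (TGATGNAA) and the ZNF143 motif (ACTACAA) were in 0 of the 26 members, beside 2.21% and 4.73% of tested genes, and 3.91% and 3.27% of all genes. With 26 members, these shares rest on few genes. Motifs are short and can overlap each other, and a match is a description of the letters only.

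Depth is unknown. A search for steps of whole reads in the FPKM values found none, but it used GENCODE exon lengths. The lengths used in quantification are not given, so this search cannot show that steps are absent. In 2 libraries, vehicle 2 and ivermectin 3, the abundant transcript Yam1 was listed at 0, and it took 5.86% to 10.4% of summed FPKM in the other 7. All 8 atrial cardiomyocyte markers were tested and their summed FPKM was 5764 to 6571 with vehicle, 4834 to 5216 with ivermectin and 5484 to 5959 with importazole. The sum hides calls in both directions: 2 of the 8 passed as lower with ivermectin, 2 as higher and 1 as lower with importazole, and 1 as lower in the direct comparison. Of all genes tested, 4.31% passed with ivermectin, 2.26% with importazole and 3.42% in the direct comparison. Actc1, cardiac actin, fell with both compounds, from 684 ± 15.6 to 582 ± 8.33 and 509 ± 15.3 FPKM (limma adjusted p = 0.0317 and 0.00146). The 2 markers higher with importazole were Nppa, from a mean of 163 to 250 FPKM, and Gja1, from 70.5 to 87.6 FPKM (limma adjusted p = 0.0118 and 0.0449). Fibroblast markers (1 of 7 tested) summed to 1.34 to 2.25 FPKM over the 9 libraries and macrophage markers (1 tested of 4 listed) to 0.812 to 2.295 FPKM. Endothelial markers (1 of 5 tested) summed to 9.27 to 10.4 with vehicle, 7.99 to 8.60 with ivermectin and 9.17 to 9.78 with importazole, most of it from Kdr, while Cdh5, the endothelial cadherin, was at most 0.0473 FPKM. Smooth muscle markers (3 of 4 tested) summed to 1347 to 1404, 1158 to 1279 and 1173 to 1285 in the same order, nearly all from Acta2 and Tagln, and Myh11, the defining smooth muscle myosin, stayed at 0.032 to 0.119 FPKM. The part of these cells in the values below was not tested. In bulk RNA, fewer cells expressing a gene and less RNA per cell cannot be told apart.

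Levels of the 30 tested members differed widely within each region of the pore, although FPKM is scaled to transcript length (the plot of levels by library). In the outer ring, Sec13, which also serves in the COPII coat of secretory vesicles, was at 109, 106 and 109.7 FPKM in vehicle 1, 2 and 3, 104, 99.2 and 114 with ivermectin and 103, 96.1 and 98.7 with importazole. Its importazole libraries lay below all 3 vehicle libraries, and its ivermectin libraries overlapped both. Nup37, a small propeller protein of the same ring, was lowest at 6.25, 7.25 and 5.87 with vehicle, 8.72, 6.69 and 9.38 with ivermectin and 7.94, 7.61 and 6.71 with importazole. Here the groups overlapped, although ivermectin 1 and 3 lay above every vehicle library. Between them were Nup85 (mean over 9 libraries 53.8 FPKM), the chromatin-binding Ahctf1 (20.5), Nup43 (12.1), Nup107 (11.97), Seh1l (11.5), which shares the GATOR2 complex of amino acid sensing with Sec13, and Nup160 (10.2).

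**Figure D1:**
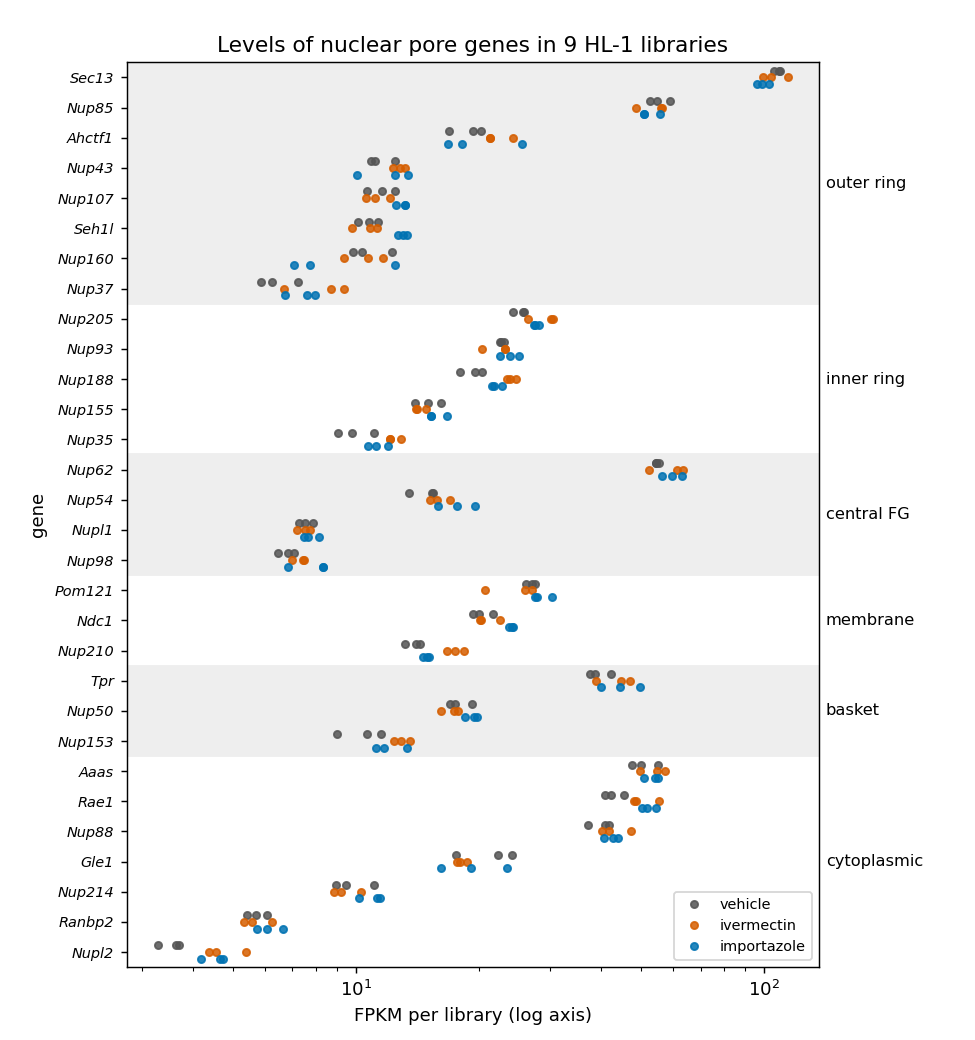
FPKM (log axis) of the 30 tested nuclear pore genes, ordered by region and mean level, with a point for each of the 3 vehicle, 3 ivermectin and 3 importazole libraries. Differences between genes exceed those between groups: the mean over 9 libraries is 104 FPKM for Sec13 and 4.28 for Nupl2, and no gene differs between groups by as much.

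The inner ring is the scaffold around the channel. Its highest member, Nup205, was at 24.3, 25.8 and 25.8 FPKM with vehicle, 26.4, 30.1 and 30.5 with ivermectin and 27.4, 27.4 and 28.2 with importazole, with all 6 compound libraries above the vehicle libraries. Its lowest, Nup35, which binds membranes, was at 9.81, 9.05 and 11.1 with vehicle, 12.1, 12.1 and 12.9 with ivermectin and 11.2, 12.003 and 10.7 with importazole. For Nup35, the ivermectin libraries lay above all others and the importazole libraries overlapped vehicle. Nup93, Nup188 and Nup155 had means of 22.99, 21.8 and 15.1 FPKM.

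The central FG nucleoporins bind transport receptors in the channel. Nup62, the core of their trimer, was at 54.3, 54.3 and 55.2 FPKM with vehicle, 61.3, 63.4 and 52.1 with ivermectin and 59.5, 62.9 and 56.4 with importazole. All 3 importazole libraries lay above vehicle, and ivermectin 3 lay below it. Nup98, whose transcript encodes both an FG protein and the outer ring protein Nup96, was at 7.06, 6.46 and 6.82 with vehicle, 7.47, 6.98 and 7.44 with ivermectin and 8.32, 6.82 and 8.34 with importazole, with overlap between all groups. Nup54 and Nupl1 (Nup58), the partners of Nup62, had means of 16.2 and 7.604 FPKM.

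Among the membrane proteins Pom121, which takes part in the assembly of pores, was at 26.98, 26.1 and 27.4 FPKM with vehicle, 25.98, 27.03 and 20.8 with ivermectin and 27.5, 30.3 and 27.8 with importazole. Its importazole libraries lay above vehicle, narrowly in 1 of them, and ivermectin 3 was the low library. In the basket, Tpr, which forms the basket filaments, was at 42.3, 37.5 and 38.6 with vehicle, 47.1, 38.7 and 44.6 with ivermectin and 39.9, 49.6 and 44.4 with importazole. Nup153, which anchors them and binds importins, was at 8.997, 11.6 and 10.7 with vehicle, 12.4, 13.6 and 12.95 with ivermectin and 11.7, 13.4 and 11.2 with importazole. Tpr overlapped between all groups, while the ivermectin libraries of Nup153 lay above its vehicle libraries. Nup50, a cofactor that frees cargo from importin α, had a mean of 18.1 FPKM. On the cytoplasmic side, Aaas (aladin, held at the pore by Ndc1) was at 55.1, 50.1 and 47.5 with vehicle, 57.2, 54.8 and 49.8 with ivermectin and 55.1, 54.1 and 50.8 with importazole, with overlap throughout. Nup88, its partner Nup214 and Ranbp2, the large filament protein that holds SUMO-modified RanGAP1, had means of 41.8, 10.1 and 5.87 FPKM. Gle1, an activator of the messenger RNA export helicase, had a mean of 19.7 FPKM.

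Ivermectin was compared with vehicle to ask which pore transcripts differ after exposure to this compound. Import itself was not measured. Nup188 and Nup210 rose modestly, and the other 28 tested members did not pass. In the limma fit over all genes, 4.31% of the 11337 genes passed at an adjusted p under 0.05, 1.79% with higher values and 2.52% with lower. The members' share, 2 of 30 (6.67%, both higher), is near the 4.31% and above the 1.79% of higher calls, and it rests on 2 genes. Nup188, an inner ring scaffold protein, was at 18.03, 20.4 and 19.6 FPKM in vehicle 1, 2 and 3 and 23.9, 24.8 and 23.5 in ivermectin 1, 2 and 3. The groups did not overlap, and the mean went from 19.4 ± 1.23 to 24.02 ± 0.665 FPKM (SD, n = 3). Its change on the log2(FPKM + 1) scale, used for all changes below and understating those of low genes, was 0.30 ± 0.0668 (SE; limma adjusted p = 0.0314).

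Nup210, a membrane glycoprotein of the pore known for roles in muscle differentiation, was at 14.1, 13.2 and 14.4 FPKM with vehicle and 16.7, 18.4 and 17.5 with ivermectin. All 3 ivermectin libraries lay above the vehicle libraries and above the importazole libraries. The mean went from 13.9 ± 0.605 to 17.5 ± 0.827 FPKM (SD, n = 3), a log2 change of 0.31 ± 0.0672 (SE; limma adjusted p = 0.0251). These are small changes in genes with little spread: the within-group SD of Nup210 and Nup188 was larger than that of 5.13% and 8.07% of tested genes. Both calls were lost without vehicle 1, 2 or 3, and without ivermectin 2 or 3, where log2 changes were 0.25 to 0.34 and limma adjusted p 0.0505 to 0.0988. They were also lost without the low-value filter, in a fit to the 6 libraries compared and with vehicle 2 and ivermectin 3, where Yam1 is at 0, both left out (limma adjusted p = 0.0631 to 0.154). Median-of-ratios scaling ended the call of Nup188 (limma adjusted p = 0.063). Without ivermectin 1, or importazole 1, 2 or 3, which enter through the shared spread, Nup210 still passed and Nup188 did not (limma adjusted p = 0.0506 to 0.0732).

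Next by p-value were Nupl2 and Nup35, which did not pass. Nupl2, a cytoplasmic FG protein that helps Gle1 in messenger RNA export, was at 3.695, 3.64 and 3.29 FPKM with vehicle and 4.55, 4.37 and 5.399 with ivermectin, a log2 change of 0.34 (95% interval 0.14 to 0.55; limma adjusted p = 0.0705). Nup35 had a log2 change of 0.29 (0.10 to 0.48; limma adjusted p = 0.0885). Rae1, a messenger RNA export and mitotic checkpoint factor, had a change of 0.24, Nup153 of 0.30, Nup37 of 0.31 and Nup205 of 0.19 (limma adjusted p = 0.104 to 0.185). At an unadjusted p under 0.05, 8 members had higher values and 0 lower (26.7% and 0%), beside 10.5% and 10.3% of all genes (20.7% in both directions). Groups did not overlap, with ivermectin higher, for 8 members, beside 12.4% of all genes, and for 0 with ivermectin lower, beside 12.2%. These were the 8 of the unadjusted count with Ahctf1 in place of Nup37.

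The median log2 change of the 30 members was 0.088, beside 0.014 for all genes, with 17 above 0 (56.7%, beside 53.3% of all genes) and 13 below. Changes ran from -0.21 for Gle1 to 0.34 for Nupl2. Every 95% interval lay within ±1, and those of 25 members lay within ±0.5, so a doubling or halving lay outside the interval of each of the 30. The intervals ran from -0.50 (Gle1) to 0.57 (Nup37).

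**Figure D2:**
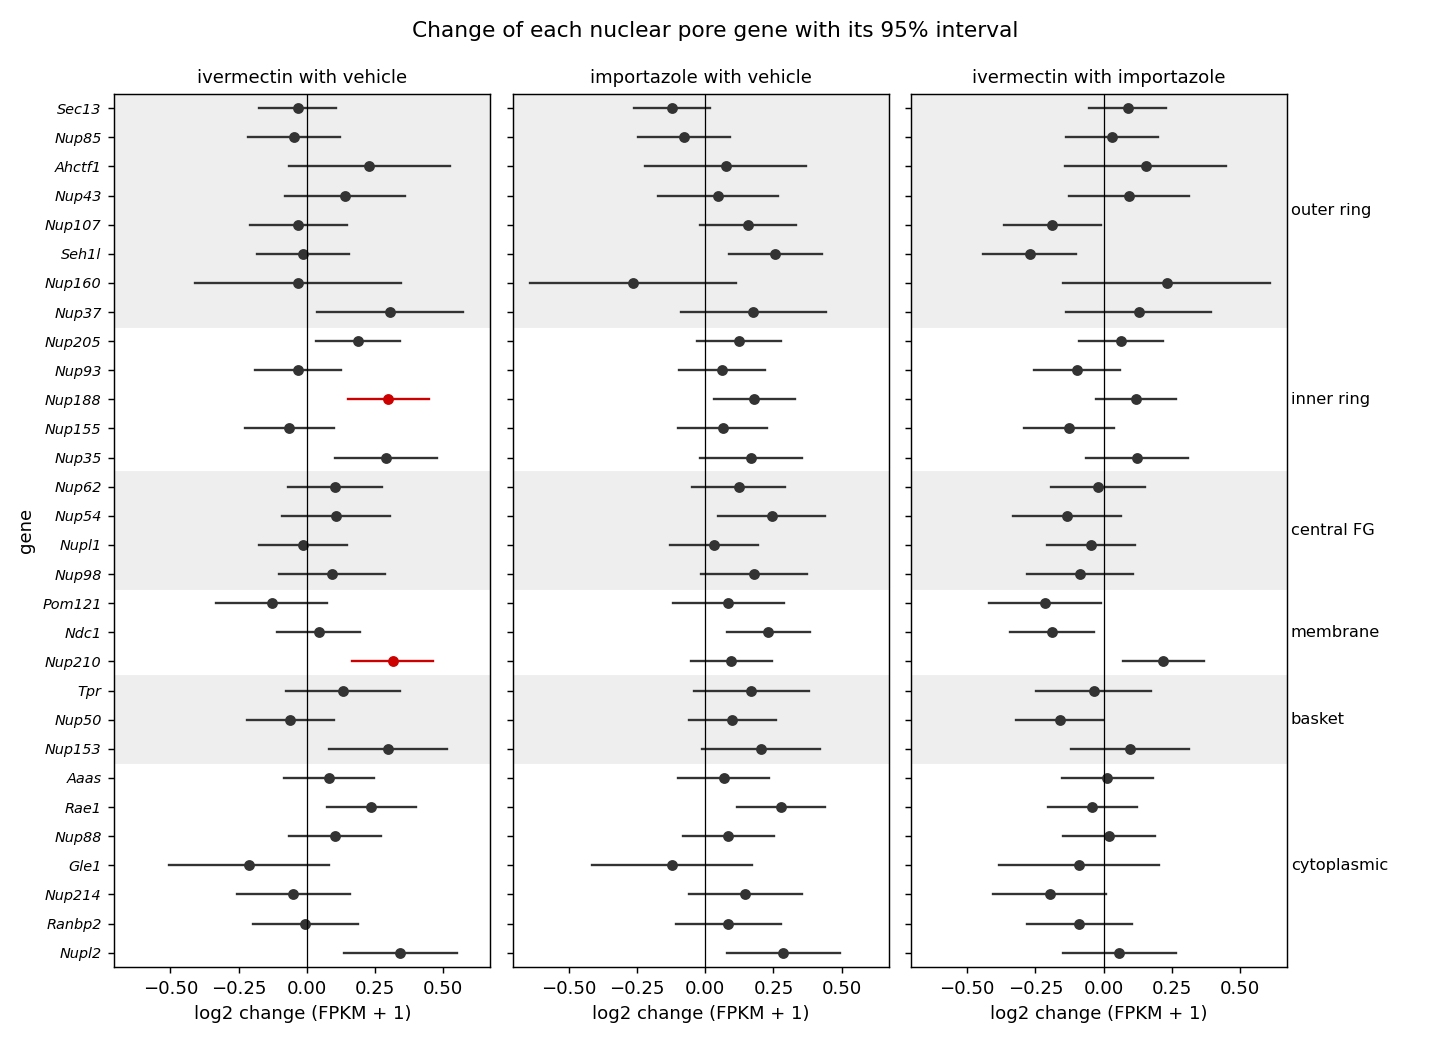
Log2 change of each tested pore gene (point) with its 95% interval (line) in the 3 comparisons, ordered by region, with genes past a limma adjusted p of 0.05 in red. Nup188 and Nup210 are the red genes, both in the comparison of ivermectin with vehicle, and every interval lies between -0.64 and 0.61.

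Importazole was compared with vehicle to ask the same of the importin-β inhibitor. Of the 30 members 0 passed limma's test, beside 2.26% of all genes (1.69% higher and 0.565% lower). At an unadjusted p under 0.05 were 6 members, all with higher values (20.0%, beside 15.8% of all genes, 11.3% higher and 4.48% lower). These were Rae1, Seh1l, Ndc1, Nupl2, Nup54 and Nup188. Rae1 was at 42.1, 45.5 and 40.8 FPKM with vehicle and 54.5, 50.1 and 51.8 with importazole, without overlap, and at 48.6, 48.04 and 55.5 with ivermectin, also above vehicle. Its log2 change with importazole was 0.28 (95% interval 0.12 to 0.44; limma adjusted p = 0.0881). Without ivermectin 3 it passed (limma adjusted p = 0.0432), at the same size.

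Seh1l, an outer ring propeller protein, was at 10.8, 10.1 and 11.4 FPKM with vehicle, 9.79, 10.9 and 11.3 with ivermectin and 13.4, 12.7 and 13.1 with importazole. Its 3 importazole libraries lay above the other 6, which overlapped, and its log2 change with importazole was 0.26 (95% interval 0.088 to 0.43; limma adjusted p = 0.125). Ndc1, a membrane anchor of the pore, showed the same order, at 20.01, 19.4 and 21.7 with vehicle, 20.3, 20.2 and 22.5 with ivermectin and 23.8, 24.1 and 24.3 with importazole. Its log2 change was 0.23 (95% interval 0.079 to 0.38; limma adjusted p = 0.126). For Nupl2 the importazole libraries, at 4.195, 4.67 and 4.75 FPKM, all lay above vehicle (log2 change 0.29). Nup188, at 22.8, 21.6 and 21.8 FPKM, and Nup210, at 14.998, 14.6 and 15.2 FPKM, had changes of 0.18 and 0.10, and the libraries of both lay above vehicle.

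**Figure D3:**
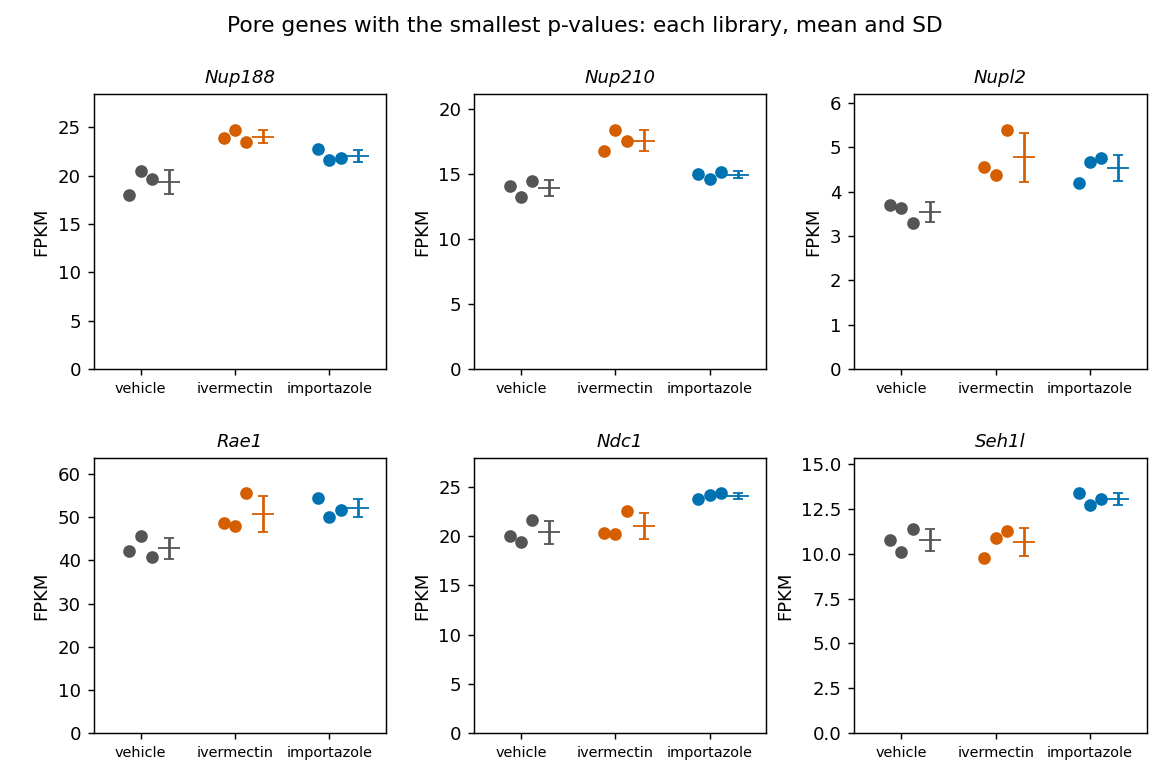
FPKM of 6 pore genes in each library (points), with group mean and SD (n = 3) to the right of the points. The genes have small p-values in at least 1 comparison: ivermectin libraries are highest for Nup188 and Nup210, importazole libraries for Ndc1 and Seh1l, and vehicle libraries lie below both compounds for Nupl2 and Rae1.

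In all, 26 of the 30 log2 changes with importazole were above 0 (86.7%, beside 61.4% of all genes). Quantile normalization left 24 above 0 and median-of-ratios scaling 25, with the sign of Nupl1 turning under both and that of Nup43 under the first. The median was 0.11, beside 0.041 for all genes. After the 2 scalings the medians were 0.059 and 0.065, beside -0.0045 and -0.0011. The 4 members below 0 were Nup160 (-0.26), Sec13 (-0.12), Gle1 (-0.12) and Nup85 (-0.078). Groups did not overlap, with importazole higher, for 11 members (36.7%, beside 16.5% of all genes) and, with importazole lower, for Sec13 (3.33%, beside 7.07%). Intervals lay within ±0.5 for 29 members, the exception being Nup160, at -0.64 to 0.11. Both comparisons with vehicle use the same 3 vehicle libraries, so a low value there raises both changes of a gene.

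The compounds were then compared directly. Of the 30 members 0 passed limma's test, beside 3.42% of all genes (0.714% higher and 2.71% lower with ivermectin). At an unadjusted p under 0.05 were 6 members (20.0%, beside 19.0%), 1 with higher and 5 with lower values with ivermectin (3.33% and 16.7%, beside 6.13% and 12.8%). With ivermectin, Seh1l had a log2 difference of -0.27 (95% interval -0.44 to -0.10; limma adjusted p = 0.084), Ndc1 of -0.19, Nup107 of -0.19, Pom121 of -0.21 and Nup50 of -0.16. Nup210 was the 1 of the 6 with higher values with ivermectin, a log2 difference of 0.22 (95% interval 0.070 to 0.37; limma adjusted p = 0.11). It passed after quantile normalization (log2 difference 0.27, limma adjusted p = 0.0438). The call of Nup188 with ivermectin was not matched by a difference from importazole (0.12, 95% interval -0.029 to 0.27; limma adjusted p = 0.379). The median difference was -0.028, beside -0.026 for all genes, and it was 0.027 after quantile normalization. Differences were above 0 for 14 members (46.7%, beside 42.9% of all genes). Groups did not overlap for 3 members with ivermectin higher (10.0%, beside 8.04%) and 6 with ivermectin lower (20.0%, beside 16.1%). All 30 members lay between the 5th and 95th percentiles of all genes, -0.34 and 0.27.

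**Figure D4:**
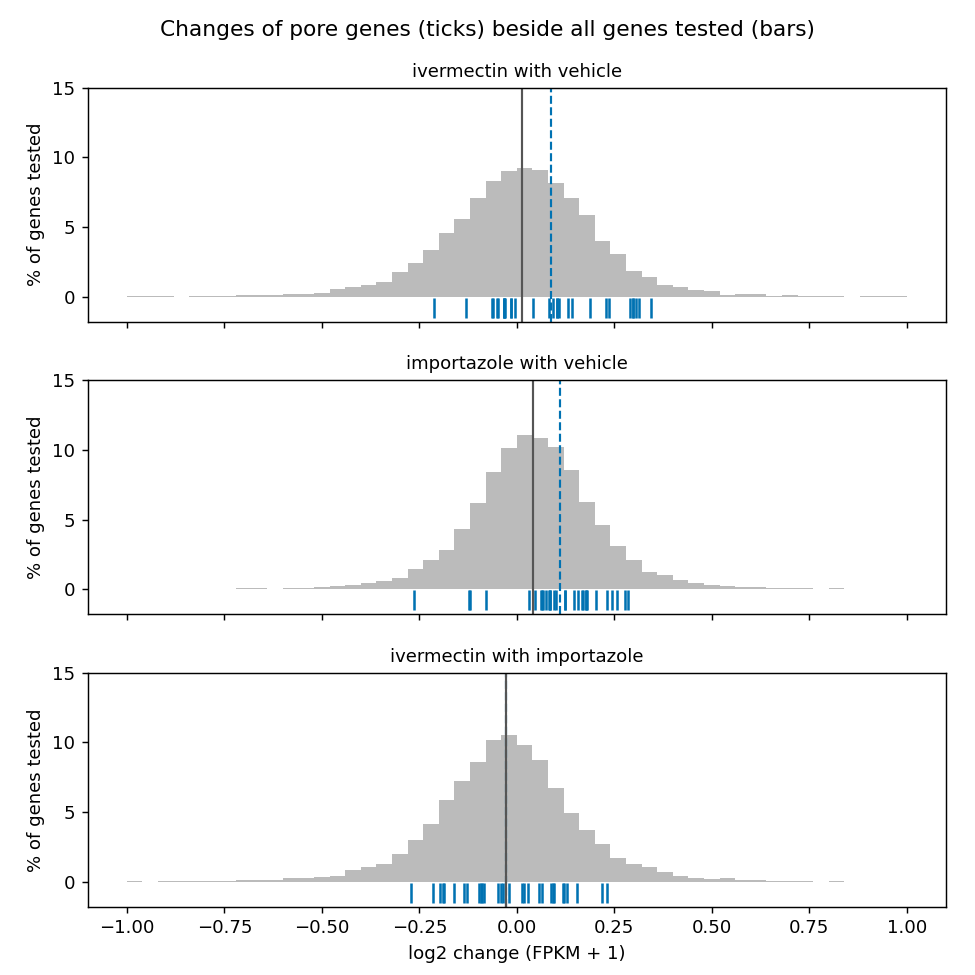
Distribution of log2 changes of all 11337 genes tested (bars, percent of genes) with the 30 pore genes as ticks, the pore median as a dashed line and the median of all genes as a solid line. The 56, 29 and 57 genes beyond 1 log2 unit (top to bottom) lie outside the axis, and the pore genes sit in the body of each distribution.

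By region, the inner ring had the highest median change with ivermectin, 0.19 (5 genes, -0.064 to 0.30), followed by the basket at 0.13 (3 genes) and the central FG group at 0.098 (4 genes). The cytoplasmic group was at 0.082 (7 genes), the membrane group at 0.043 (3 genes, -0.13 to 0.31) and the outer ring at -0.022 (8 genes, -0.048 to 0.31). With importazole, the medians were 0.17 in the basket, 0.15 in the central FG group, 0.12 in the inner ring, 0.096 in the membrane group, 0.085 in the cytoplasmic group and 0.061 in the outer ring. Ranges within the outer ring, inner ring, membrane and cytoplasmic groups exceeded the distance from lowest to highest region median in both comparisons with vehicle. The same held for the basket with ivermectin and for the central FG group with importazole. The outer ring ran from -0.26 for Nup160 to 0.26 for Seh1l with importazole. In the direct comparison, the membrane group ran from -0.21 for Pom121 to 0.22 for Nup210, with a median of -0.19, or -0.087 with Aaas placed in that group. Regions hold 3 to 8 genes and were not tested.

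Summed over the 30 members, FPKM was 718, 704 and 717 in the vehicle libraries, 752, 745 and 752 with ivermectin and 749.7, 758 and 751 with importazole. The means were 713 ± 7.65, 749.6 ± 4.02 and 753 ± 4.44 (SD, n = 3), so both compound groups lay above vehicle on this scale. Taken as a share of summed FPKM without Yam1, the groups overlapped: 0.192% ± 0.0064 with vehicle, 0.200% ± 0.0097 with ivermectin and 0.197% ± 0.00096 with importazole. Inner ring genes summed to 92.5 ± 2.91, 102 ± 2.80 and 100.7 ± 0.662 FPKM in the same order. Outer ring genes, of which Sec13 is the largest part, summed to 234 ± 5.75, 235 ± 5.96 and 227 ± 6.81 FPKM.

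With the spread pooled over the 3 groups, libraries of a group agreed less well for 3 members than for the rest. Within ivermectin alone this did not hold: the SD was 2.74% of the mean for Gle1 and 16.9% for Nup37. Nup160, of the outer ring, was at 10.4, 12.3 and 9.86 FPKM with vehicle, 9.35, 11.7 and 10.7 with ivermectin and 7.71, 7.08 and 12.5 with importazole, where importazole 3 stood above the other 2. Ahctf1, which seeds pores on chromatin, was at 19.4, 16.97 and 20.3 with vehicle, 24.3, 21.3 and 21.3 with ivermectin and 16.9, 18.2 and 25.5 with importazole, again with importazole 3 the highest of its group. Gle1 was at 24.1, 22.3 and 17.7 with vehicle, 18.1, 17.7 and 18.7 with ivermectin and 19.2, 23.5 and 16.1 with importazole, with importazole 3 the lowest. The pooled within-group SDs of Nup160, Ahctf1 and Gle1 on the log2 scale were 0.26, 0.20 and 0.20, larger than those of 93.4%, 84.3% and 83.8% of tested genes. For the other 27 members the SD was 0.050 to 0.17, the smallest being that of Nupl1, whose 9 libraries ran from 7.19 to 8.13 FPKM.

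Other genes of nuclear transport and of the envelope were read from the same fit. Over all genes, 4.31%, 2.26% and 3.42% passed and 20.7%, 15.8% and 19.0% had an unadjusted p under 0.05 with ivermectin, with importazole and in the direct comparison, so 0 calls in a list of 4 to 18 genes is near the background. Of 17 tested import receptor genes, 0 passed in any of the 3 comparisons, with 2, 6 and 3 at an unadjusted p under 0.05 and medians of 0.070, 0.086 and -0.041. The 6 with importazole all had higher values, beside 11.3% of all genes. Of 10 export receptor genes 1 passed with each compound, and 0 in the direct comparison. The 1 was Xpot, the exportin for tRNA, which rose from 8.03 ± 0.631 FPKM with vehicle to 13.7 ± 0.442 with ivermectin and 12.4 ± 0.641 with importazole. Its log2 changes were 0.71 and 0.57 (limma adjusted p = 0.000387 and 0.00255), larger than that of any pore gene. With Xpot included, 2, 3 and 0 of the 10 had an unadjusted p under 0.05. Those with a compound against vehicle all had higher values, beside 10.5% and 11.3% of all genes. Log2 changes were above 0 for 9 of the 10 with each compound, beside 53.3% and 61.4% of all genes. Of 6 tested Ran cycle genes, 11 messenger RNA export factors and 4 SUMO pathway genes, 0 passed in each comparison. At an unadjusted p under 0.05 were 1, 0 and 1 of the Ran cycle genes, 2, 0 and 3 of the export factors and 0, 1 and 1 of the SUMO genes.

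Of 18 lamina and envelope genes 0 passed with either compound against vehicle. At an unadjusted p under 0.05 were 3 and 1, and 6 in the direct comparison, beside 20.7%, 15.8% and 19.0% of all genes. Lbr, the lamin B receptor, was lower with ivermectin than with importazole, at 41.3 ± 0.525 and 49.8 ± 1.701 FPKM (log2 difference -0.26, limma adjusted p = 0.0363), a call lost on leaving out any 1 of 7 libraries (limma adjusted p = 0.061 to 0.137). Dividing cells build new pores, and 19 proliferation genes were read beside the pore genes. Of these, Pcna, the replication clamp, and Ccna2, cyclin A2, fell with ivermectin, from 138 ± 3.64 to 117 ± 2.99 FPKM and from 65.5 ± 1.64 to 55.3 ± 1.39 FPKM (log2 changes -0.24 and -0.24, limma adjusted p = 0.0413 and 0.0311). The call of Pcna was lost on leaving out any 1 of the 9 libraries, and that of Ccna2 on leaving out any but ivermectin 3 (limma adjusted p = 0.0517 to 0.122). Both were also lost without the low-value filter, in a fit to the 6 libraries compared, with ordinary moderation and without vehicle 2 and ivermectin 3, and that of Pcna after quantile normalization (limma adjusted p = 0.0527 to 0.166). At an unadjusted p under 0.05, 7 of the 19 had lower values with ivermectin and 0 higher, beside 10.3% and 10.5% of all genes. With importazole 0 passed and 1 had an unadjusted p under 0.05 (beside 15.8% of all genes), and in the direct comparison 0 and 4 (beside 19.0%). The list medians were -0.054 with ivermectin and -0.021 with importazole, beside 0.014 and 0.041 for all genes. Log2 changes were above 0 for 6 and 8 of the 19 genes. The part of cell division in the pore values was not tested.

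Members lie on many chromosomes, and their levels are uncertain where annotated exons overlap, since no source used here says whether strand was used in quantification. Positions are from GENCODE M21 on GRCm38. Nup188 (chromosome 2, 30286397 to 30344266, plus strand) starts 63 bases from Dolk, a dolichol kinase gene on the other strand, and shares 492 exon bases with Gm14471 on the opposite strand and 284 with Gm28038 on its own. The Dolk start lies inside the promoter window printed for Nup188, between the YY1 match and the Nup188 start. Dolk had a log2 change of -0.14 with ivermectin (limma adjusted p = 0.434), beside 0.30 for Nup188. Such head-to-head starts within 1000 bases were found for 4 of the 30 members (13.3%, beside 11.3% of 10683 protein-coding genes tested), the others being Nup98 with Pgap2, Nup88 with Rpain and Nup37 with Parpbp. Nup210 (chromosome 6, 91013068 to 91116829, minus strand) shares no annotated exon base with another gene.

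Nup62 shares 82 exon bases (2.87% of its own) with Atf5 on the opposite strand, whose log2 changes were 1.08 with ivermectin and 1.16 with importazole (limma adjusted p = 0.000166 and 0.000179). The part of Atf5 in the Nup62 values was not tested. Pom121 shares 665 bases (11.9%) with Nsun5 on the opposite strand, which did not pass in any comparison, and Nupl1 shares 1756 bases (48.8%) with Gm49336 on its own strand. Ranbp2 has 12 annotated pseudogenes that could share its reads, so its level is uncertain.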

How the data were processed

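Poly(A) RNA of 9 HL-1 libraries (3 per group) was captured on magnetic beads and sequenced on the Ion Proton system, per the labels' protocols. The deposited files give a gene symbol and an FPKM value, per the file headers. Both mm10 and GRCm38 stand in the submitters' processing notes as builds, and Cufflinks, Bowtie, Bowtie2 and STAR as tools whose roles are unstated. Annotation and filters: not given in the sources used here. Because FPKM is relative to all mapped fragments, loss of an abundant transcript can raise the rest. Summed FPKM was 365259 in vehicle 2 and 392482 in ivermectin 3, where Yam1 was at 0, and 398534 to 416748 in the other libraries. Whether the rest rose there was not tested.

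Where a symbol had several lines (48 symbols), its values were added. Genes reaching 1 FPKM in 3 or more libraries were analysed as log2(FPKM + 1), without further scaling, in limma 3.58.1 (R 4.3.3; group as the only term, all 9 libraries, intensity trend, robust moderation, two-sided). Benjamini-Hochberg adjustment ran over all genes tested, at 0.05, and intervals are at 95%. The procedure was tested on simulated data. All members are named; values for every library are given for members past the threshold, the 2 smallest p in each comparison, and the highest and lowest member of each region, with others, such as Ahctf1, Gle1, Nup160 and Ndc1, chosen after their values were seen. Context genes are named where they passed, up to 4 per list, and cell type markers by list. The members and lists were chosen with earlier results of these data known. Sequences are from RefSeq (GRCm38.p6). Alternatives changed the pseudocount, filter, scaling, libraries, moderation, region and replicate block. Figures used Python 3.11.15 and matplotlib 3.10.9.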

Additional observations from a re-analysis of the deposited data

Results flagged for a closer look

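Lbr, a nuclear envelope protein gene, differed between the compounds by a direct test (log2 difference -0.263, ivermectin with importazole, limma adjusted p = 0.0363), with 3 of 3 ivermectin libraries below all importazole libraries. Vehicle libraries were at 42.4 to 46.1 FPKM, between the groups. It passed with either other pseudocount and with a filter at a mean of 5 FPKM (limma adjusted p = 0.0308 to 0.0365). It did not pass without a filter, after quantile or median-of-ratios scaling, in a fit to 6 libraries, with ordinary moderation or with the replicate block (limma adjusted p = 0.0505 to 0.0845). It also did not pass without any 1 of 7 libraries, every one but vehicle 1 and vehicle 3, nor without vehicle 2 and ivermectin 3 (limma adjusted p = 0.061 to 0.137).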

How the results depend on the processing

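Directions of the calls of Nup188 and Nup210 with ivermectin held under every alternative run, at log2 changes of 0.25 to 0.35, but the calls did not. Pore genes called with ivermectin, 2 as reported, numbered 0 without the filter, 0 in a fit to the 6 libraries compared, 0 with the replicate block, 0 when vehicle 2 and ivermectin 3 were both left out, and 1 (Nup210) after median-of-ratios scaling; leaving out each library gave 0 to 1. Pseudocounts of 0.1 and 0.5, a filter at a mean of 5 FPKM, quantile normalization and ordinary moderation kept both calls. With importazole, leaving out each library gave 0 to 1 pore genes (Rae1), and in the direct comparison quantile normalization gave 1 (Nup210).

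Over all genes, calls numbered 489, 256 and 388 for ivermectin, importazole and the direct comparison, and 211, 133 and 177 without the filter, where more genes were tested. They were 190, 161 and 231 without vehicle 2 and ivermectin 3. Leaving out each library gave 243 to 398, 127 to 319 and 176 to 396. The fit to 6 libraries gave 274 for ivermectin, and the replicate block 257 for the direct comparison. The split of higher to lower genes with importazole, 192 to 64, was 159 to 117 after quantile normalization and 162 to 118 after median-of-ratios scaling; for the direct comparison 81 to 307 became 191 to 274 and 139 to 282.

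The pore median with ivermectin was 0.0623 without the filter, 0.0544 without vehicle 2 and ivermectin 3, and 0.0542 to 0.103 leaving out each library. With importazole it was 0.0593 and 0.0650 after quantile and median-of-ratios scaling. In the direct comparison it was 0.0275 and 0.00148 after these, and -0.0429 to 0.00507 leaving out each library. The membrane median there was -0.0872 with Aaas in that region. Where not stated, the cause was not tested. Same-numbered libraries did not deviate together: correlations of deviations were -0.21 to 0.145 over 9 pairs, beside -0.22 to 0.31 over 18 differently numbered pairs. The 0.31 was between vehicle 2 and ivermectin 3, the 2 libraries that list Yam1 at 0, and the next highest pair was at 0.18. What these 2 libraries share was not tested. Best matches were by number in 7 of 18. With 3 libraries per group, these values cannot decide whether the numbers pair the samples. With the replicate block the limma adjusted p was 0.0641 for Nup188 and 0.0559 for Nup210. The calls of Xpot with both compounds held under every alternative. Unknown depth limits the members with low FPKM.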
